A study of Mus musculus with 2 samples.

Results

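Laminins are the cross-shaped glycoproteins of basement membranes, and the laminin chain genes read in mouse skin here are 8 of the 32285 genes of the count matrix: the α chain genes Lama2, Lama3, Lama4 and Lama5, the β chain genes Lamb1, Lamb2 and Lamb3, and the γ chain gene Lamc1. The list was set by chain family and all 8 had UMIs (unique molecular identifiers, each a captured RNA molecule), from 307 for Lama5 to 27164 for Lama2 over all barcodes. Their levels were compared between classes of skin cells set by marker genes, to see which class held the RNA of which chain.

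The cells came from dissociated skin of C57BL/6 mice, 8 weeks of age, left as controls or given an antibody against the neutrophil surface protein Ly6G (clone 1A8) on 2 consecutive days, and the series asks what the loss of neutrophils does to the skin. Single cells were released with Liberase and DNAseII, and control and depleted cells carried hashtag antibodies in 1 pool, sequenced as an RNA library and a hashtag library. The matrix holds the pooled RNA library alone, with 8367 barcodes and no condition for any of them. Every value below therefore describes control and depleted skin mixed, there is 1 library with no replicate, and intervals in parentheses are 95% intervals that cover counting error only. How many animals were pooled is not given in the sources used here.

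A laminin is a trimer of one α, one β and one γ chain, joined by a coiled coil inside the cell before it is secreted. The α chain carries the globular domains that bind integrins and dystroglycan on cell surfaces, and the short arms of many laminins bind each other into a sheet that nidogen, perlecan and collagen IV complete. In skin, the laminin with α3 and β3 chains (gene products of Lama3 and Lamb3) anchors basal keratinocytes to the dermis through hemidesmosomes and is lost in junctional epidermolysis bullosa, α5 laminins lie in the epidermal, follicular and vascular basement membranes, α4 laminins around vessels, and the α2 chain, which is lost in a congenital muscular dystrophy, is best known from muscle and peripheral nerve.

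For the dermal and the epidermal side, the bases just before the start of one gene each are shown, since Lama2 and Lama5 lay on opposite sides of the comparison of fibroblast-like with basal keratinocyte-like barcodes. Promoters from RefSeq (GRCm38.p6, the mm10 assembly) were read for 5 of the 8 genes, and those of Lama3, Lama4 and Lamc1 were not used here. Of these, the 250 bases before the start of Lama2 and of Lama5 overlapped 0 exons of the GENCODE annotation on the same strand. The Lama2 window is chr10:27616943-27617192 on the minus strand, inside the longer GENCODE model of Lama2, which ends at base 27619758. The Lama5 window is chr2:180225860-180226109 on the minus strand. Each line runs 5′ to 3′ along the gene's strand, up to the last base before the RefSeq start, and capitals mark matches to the 4 motifs searched on both strands.
Lama2: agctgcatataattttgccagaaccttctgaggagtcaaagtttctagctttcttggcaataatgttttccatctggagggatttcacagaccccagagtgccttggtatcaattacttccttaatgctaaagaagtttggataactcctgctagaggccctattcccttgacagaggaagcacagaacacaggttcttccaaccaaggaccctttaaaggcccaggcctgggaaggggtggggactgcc
Lama5: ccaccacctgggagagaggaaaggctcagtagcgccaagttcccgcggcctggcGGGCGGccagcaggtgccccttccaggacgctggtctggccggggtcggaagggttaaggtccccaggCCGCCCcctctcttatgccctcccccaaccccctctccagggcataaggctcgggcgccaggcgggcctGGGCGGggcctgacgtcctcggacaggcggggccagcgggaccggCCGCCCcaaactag
The motifs were AP-1 (TGANTCA), the GC box (GGGCGG), the CCAAT box (CCAAT) and the TATA box (TATAAA), which share no overlapping match in these windows. The Lama5 window held 4 GC boxes, beginning 196, 128, 59 and 14 bases before the start, and none of the other motifs. The Lama2 window matched 0 of the 4 motifs. Over 32851 mouse promoter windows of the same 250 bases, 32.7% held a GC box, 6.75% an AP-1 motif, 33.8% a CCAAT box and 12.4% a TATA box. The Lamb1 window, which overlapped 1 exon of the GENCODE annotation on the same strand, held 2 GC boxes and 1 CCAAT box. A match describes the letters and not a site in use.

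After 240 barcodes under 200 detected genes or over 20% UMIs from mitochondria were set aside, 8127 remained. A barcode entered a class when at least 3 markers of 1 lineage alone had 2 UMIs or more, and the 6881 barcodes so gated held 73342224 UMIs, with a median of 10228. The fibroblast-like class (Dcn, Lum, Col1a1, Col1a2, Pdgfra) had 3493 barcodes. The keratinocyte-like class had 1259, split by keratin markers into 813 basal, 283 suprabasal, 18 hair follicle and 145 other barcodes. Myeloid-like barcodes numbered 1705, lymphoid-like 255, skeletal muscle-like 101 and mural-like 13, the contractile cells of vessel walls. Only 3 blood endothelial-like and 3 Schwann-like barcodes passed, and no lymphatic endothelial, adipocyte or sebocyte class was found, so vessels, nerves and fat of the skin are hardly covered here. Of the fibroblast-like barcodes 123 had just the 3 markers needed, and 65 ungated barcodes had 2. Barcodes passing several lineage gates (466, of which 120 fibroblast with myeloid and 87 fibroblast with keratinocyte) were left out, and 66 of the gated barcodes were called doublets and kept. A level is in CPM, the UMIs of a gene scaled to 1000000 UMIs of the class. UMI counts carry no correction for a gene's length or capture, so each gene is compared between classes and not with other genes.

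Between fibroblast-like and basal keratinocyte-like barcodes the 8 chains fell into a dermal and an epidermal set, names that refer to these classes alone. In fibroblast-like barcodes 5 chains (Lama2, Lama4, Lamb1, Lamb2 and Lamc1) were more than 2-fold above all other gated barcodes, where 19.8% of the 15047 genes with 50 UMIs or more were, and the other 3 (Lama3, Lama5, Lamb3) were below 0.5-fold, as 24.7% of genes were. In basal keratinocyte-like barcodes it was the reverse, with Lama3, Lama5 and Lamb3 above 2-fold (13.9% of genes) and the 5 others below 0.5-fold (30.7%). The other gated barcodes here include the fibroblast-like ones, which held 96.7 to 98.7% of the UMIs of these 5 chains. Calls of these chains below 0.5-fold in any other class are thus not independent of the fibroblast-like result. Basal Lamc1, called below, was at 39.7 CPM against 6.97 CPM in myeloid-like barcodes. The median log2 ratio of the 8 chains was 4.60 in the fibroblast-like class against −0.17 over all genes tested, and −3.07 against −0.07 in the basal class. No member was above 2-fold in myeloid-like (15.5% of genes) or skeletal muscle-like barcodes (10.4%), where all 8 were below 0.5-fold (33.6% and 68.1% of genes). The same held within the myeloid classes, macrophage-like (31.0% of genes below 0.5-fold), monocyte-like (36.0%) and other myeloid-like (35.0%). Suprabasal barcodes had 1 chain above 2-fold, Lama3 (10.8% of genes), and 6 below 0.5-fold (38.1%). Lymphoid-like barcodes had 1 chain above 2-fold, Lamb3 (16.2% of genes), and 7 below 0.5-fold (35.1%). Some of the calls below 0.5-fold rest on few UMIs and have intervals that reach above 0.5. For Lama5 the interval reached 1.86 in skeletal muscle-like and 0.789 in lymphoid-like barcodes, with 0 UMIs in each. It reached 0.752 in monocyte-like (1 UMI) and 0.560 in suprabasal barcodes (2 UMIs). For Lamb3 it reached 0.914 in skeletal muscle-like barcodes (6 UMIs).

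**Figure D1:**
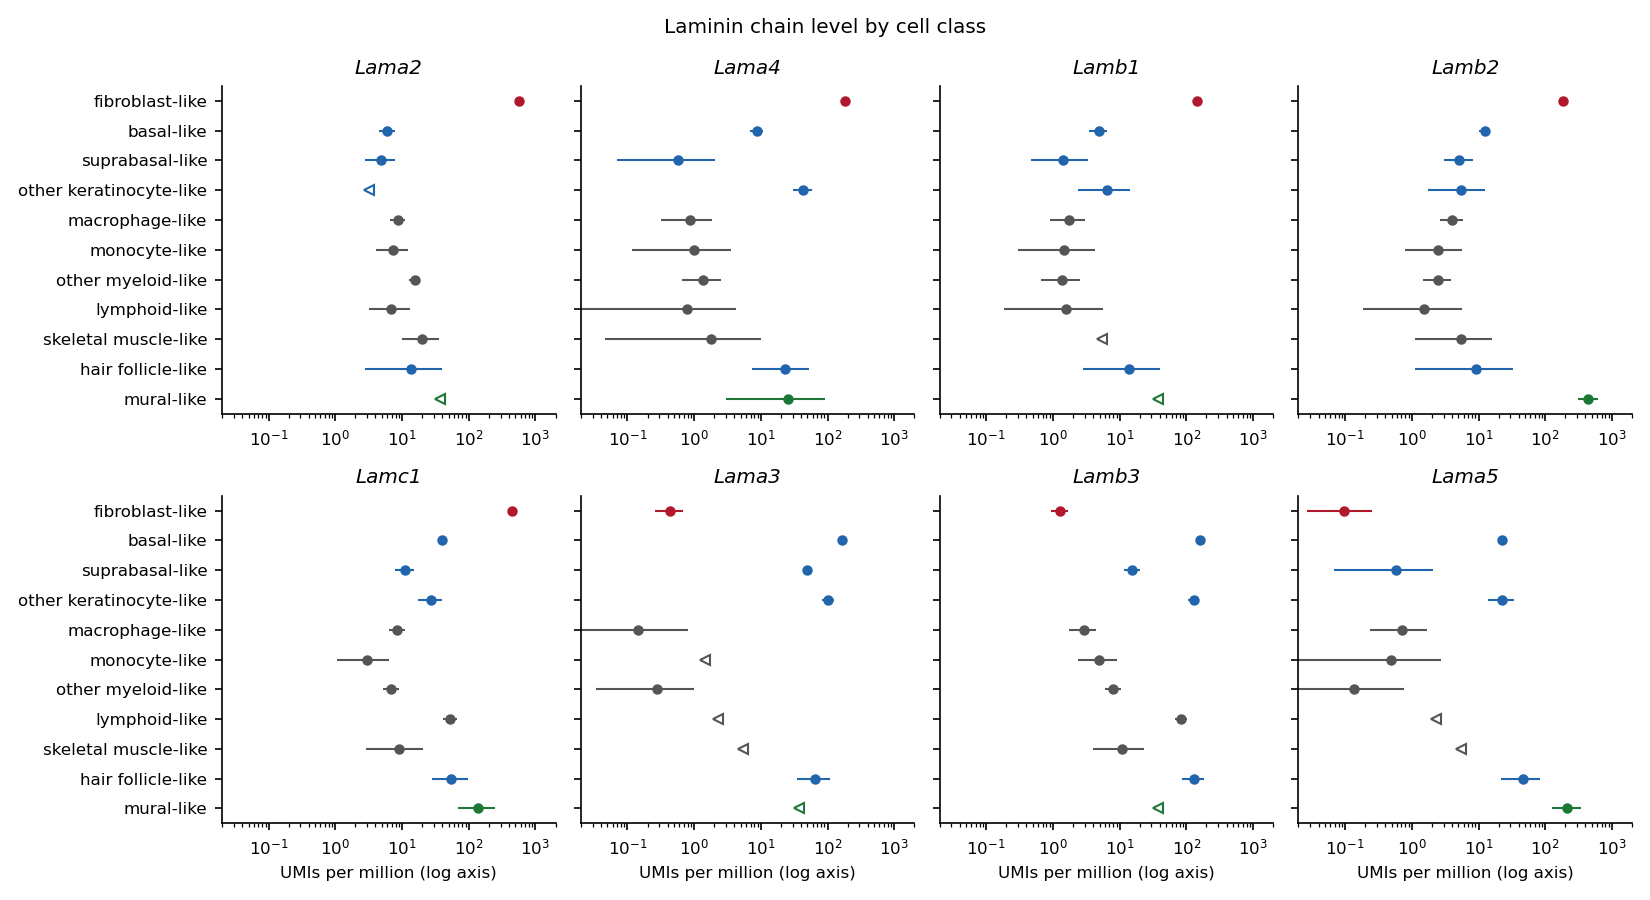
Level of each of the 8 laminin chain genes in 11 cell classes, in CPM (UMIs scaled to 1000000) on a log axis. Points are class sums, bars are exact 95% Poisson intervals and open triangles mark 0 UMIs, drawn at the level of 3 counts. Lama2, Lama4, Lamb1 and Lamc1 were highest in fibroblast-like barcodes among the classes drawn, Lama3 and Lamb3 in keratinocyte-like ones, and Lamb2 and Lama5 in the 13 mural-like barcodes.

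Lama2, the gene of the α2 chain that binds dystroglycan, had 22979 of its 23277 gated UMIs in fibroblast-like barcodes, 98.7% (98.6 to 98.9), at 559 CPM (552 to 567). The next levels among classes of 50 barcodes or more were 19.8 CPM (9.88 to 35.4) in skeletal muscle-like and 15.4 CPM (12.7 to 18.6) in other myeloid-like barcodes, which overlap, and 1 barcode held 45 of the 112 other myeloid UMIs. Basal barcodes had 5.95 CPM (4.46 to 7.79). A UMI of Lama2 was seen in 3205 fibroblast-like barcodes (91.8%). Thinned to 1000 UMIs per barcode, 38.4% (36.8 to 40.1) of fibroblast-like, 0.246% (0.0298 to 0.886) of basal and 0 of 254 lymphoid-like barcodes had one. The last allows a share of up to 1.18% with a UMI at this reduced depth, while 2.75% of lymphoid-like barcodes had one unthinned. Lama2 thus stood apart from every other class of that size by intervals that do not overlap. It spans chromosome 10, bases 26980036 to 27619758, on the minus strand.

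Lama4, whose α4 chain lacks the long amino-terminal arm, was at 186 CPM (182 to 190) in fibroblast-like barcodes, with 98.0% (97.7 to 98.3) of its gated UMIs. The other keratinocyte-like barcodes came next with 43.1 CPM (30.8 to 58.6), then basal with 8.65 CPM (6.83 to 10.8). No other class of 50 barcodes or more was above 1.80 CPM. Both α chains were seen together in 2516 of 3493 fibroblast-like barcodes, 72.0% (70.5 to 73.5).

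The β chains of this set were Lamb1 and Lamb2, which code for alternative partners of the γ1 chain. Lamb1 was at 142 CPM (138 to 146) in fibroblast-like barcodes and at most 6.46 CPM (2.37 to 14.1) in the other classes of 50 barcodes or more. Lamb2 was at 183 CPM (179 to 187) there and at 12.4 CPM (10.2 to 14.9) in basal barcodes, the next in order. Fibroblast-like barcodes held 98.5% of the gated Lamb1 UMIs and 97.0% of those of Lamb2. Lamc1, the gene of the γ1 chain found in most laminins, was at 453 CPM (447 to 460), and it was the member of the dermal set with most RNA elsewhere: 53.3 CPM (41.4 to 67.4) in lymphoid-like and 39.7 CPM (35.6 to 44.0) in basal barcodes, levels that overlap each other. All 3 genes of a possible α2β1γ1 trimer had a UMI in 2179 fibroblast-like barcodes, 62.4% (60.8 to 64.0), and those of α2β2γ1 in 71.6% (70.1 to 73.1). The α4, β1 and γ1 genes were seen together in 54.3% (52.7 to 56.0). RNA of 3 genes in 1 barcode does not show that the chains were assembled.

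Lama3, the α3 chain gene, was at 164 CPM (156 to 173) in basal barcodes, 101 CPM (81.8 to 124) in other keratinocyte-like and 49.5 CPM (42.4 to 57.4) in suprabasal ones, an order in which no neighbours overlap. Keratinocyte-like barcodes together held 1741 of its 1762 gated UMIs, 98.8% (98.2 to 99.3). Of the non-keratinocyte classes the fibroblast-like one had 18 UMIs, 0.438 CPM (0.260 to 0.693), and the lymphoid-like one 0.

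Lamb3, whose β3 chain is found with α3, was at 160 CPM (152 to 168) in basal and 128 CPM (106 to 153) in other keratinocyte-like barcodes, which overlap. Suprabasal barcodes had 15.4 CPM (11.6 to 20.1) and fibroblast-like ones 1.27 CPM (0.946 to 1.66), while lymphoid-like barcodes had 83.4 CPM (68.4 to 101). Keratinocyte-like barcodes held 86.3% (84.7 to 87.9) of its gated UMIs. Lama5, the α5 chain gene, had 262 gated UMIs, of which 201 were in basal barcodes, at 22.6 CPM (19.6 to 25.9), and other keratinocyte-like barcodes, with 21 UMIs, were at the same 22.6 CPM. Suprabasal barcodes had 2 UMIs of Lama5, and fibroblast-like ones 4 in 41071895. In basal barcodes Lama3 and Lamb3 were seen together in 454 of 813, 55.8% (52.4 to 59.3). In suprabasal ones the share was 7.07% (4.37 to 10.7), and 0 of 3493 fibroblast-like barcodes held Lama3 with Lamb3. After thinning to 1000 UMIs, Lama3 was seen in 14.1% (11.8 to 16.7) of basal and 5.30% (15 of 283) of suprabasal barcodes, and Lamb3 in 13.9% (11.6 to 16.5) and 2.47% (7 of 283). In fibroblast-like barcodes Lamb3 was then seen in 0.0861% and Lama3 in 0 of 3483, which allows a share of up to 0.0861% with a UMI at this reduced depth. Unthinned, 0.344% of fibroblast-like barcodes had a Lama3 UMI. The unthinned shares of basal and suprabasal barcodes were 70.6% and 39.9% for Lama3 and 76.5% and 14.5% for Lamb3.

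The comparison of dermis with epidermis set fibroblast-like against basal barcodes. All 5 dermal chains were above 2-fold and all 3 epidermal chains below 0.5-fold, where 26.2% and 18.7% of 13526 genes were. Lama2 was 94.0-fold (71.8 to 125) higher in fibroblast-like barcodes, Lamb1 29.4-fold (21.8 to 40.7), Lama4 21.5-fold (17.2 to 27.3), Lamb2 14.8-fold (12.3 to 18.0) and Lamc1 11.4-fold (10.3 to 12.7). In the other direction Lama3 was 374-fold (236 to 633) higher in basal barcodes, Lama5 232-fold (89.2 to 859) and Lamb3 126-fold (95.7 to 170). These folds have low counts on one side and move with how other-cell RNA is treated. With classes set by whole clusters in place of marker gates Lama2 was 17.28-fold, and with the RNA shared between classes subtracted 222.5-fold.

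**Figure D2:**
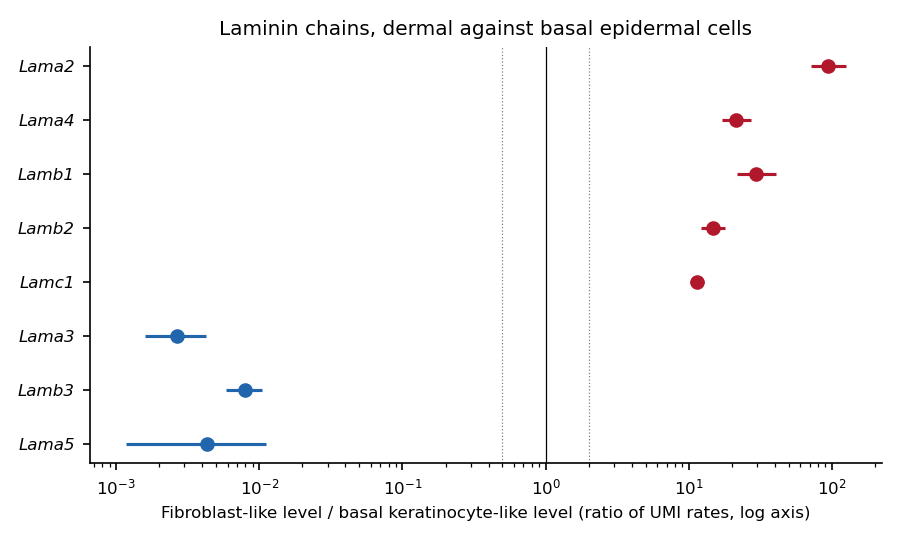
Ratio of the level in 3493 fibroblast-like to that in 813 basal keratinocyte-like barcodes for each chain, on a log axis, with exact conditional 95% intervals. The solid line is a ratio of 1 and the dotted lines are 0.5 and 2. The 5 dermal chains lie between 11.4 and 94.0, and the 3 epidermal chains between 0.00267 and 0.00792.

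RNA free in the droplets can place UMIs in classes that do not make a gene, so fibroblast genes and keratinocyte genes outside the gates were read the same way. The summed level of Col3a1, Col5a1, Col5a2, Col6a3 and Fbln2 was in basal barcodes 0.615% of that in fibroblast-like ones, in macrophage-like 0.793% and in lymphoid-like 0.847%. Beside these, basal Lama2 was at 1.06% of its fibroblast-like level, Lamb1 at 3.40%, Lama4 at 4.65%, Lamb2 at 6.75% and Lamc1 at 8.75%. In macrophage-like barcodes Lama4 was at 0.465%, Lamb1 at 1.22%, Lama2 at 1.57%, Lamc1 at 1.87% and Lamb2 at 2.20%. All 5 basal shares were above that of the other fibroblast genes, by least for Lama2, and macrophage-like Lama4 was below it. The part of free RNA in these levels was not tested further. The keratinocyte genes Dsp, Jup, Lgals7 and Cdh1 were in fibroblast-like barcodes at 0.274% of their keratinocyte level. Fibroblast-like Lama3 was at 0.267% of basal, Lama5 at 0.431% and Lamb3 at 0.792%. The basal levels of these chains were above their levels in all keratinocyte-like barcodes. Their shares therefore have another denominator than that of the keratinocyte genes. The fibroblast-like Lama3 level was also not even: 8 of its 18 UMIs lay in 3 of the 88 fibroblast-like barcodes of a cluster led by Crabp1, described below.

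Within the epidermis, basal cells sit on the basement membrane and suprabasal cells have left it. Of the 8 chains 7 were more than 2-fold higher in basal than in suprabasal barcodes (13.7% of 10105 genes) and 0 were below 0.5-fold (4.04%). Lama5 was 39.5-fold (10.8 to 328) higher and Lamb3 10.4-fold (7.89 to 13.9), against 3.32-fold (2.83 to 3.90) for Lama3. Lama5 and Lama4 rest on 2 suprabasal UMIs each, and Lama4 was 15.1-fold (4.05 to 127). Lamc1 was 3.56-fold (2.55 to 5.09), Lamb1 3.38-fold (1.34 to 10.9) and Lamb2 2.40-fold (1.45 to 4.20) higher, while for Lama2, at 5.95 and 4.86 CPM, the interval of the ratio included 1 (0.698 to 2.26). Lamb1 was 1.574-fold with 4 markers per gate and Lamb2 1.319-fold with whole clusters. The ratios of Lamb3 and Lama3 differ by intervals that do not overlap. Between basal and the 18 hair follicle barcodes Lama3 alone was above 2-fold (17.1% of 9639 genes), at 2.56-fold (1.52 to 4.69). Lama2, Lama4, Lama5 and Lamb1 were below 0.5-fold (11.7%), each with an interval that included 1, and Lama2 turned to 1.316-fold with 2 UMIs per sub-gate marker.

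Because the hair follicle gate kept few barcodes, the keratinocyte-gated barcodes were also read by cluster, a division added after the values were seen. Clusters were made from all barcodes without the laminin genes. The cluster led by Krt14 and Krt15 (A3, 564 keratinocyte-gated barcodes) had Lama3 at 193 CPM (182 to 204), Lamb3 at 180 (169 to 191) and Lama5 at 23.5 (19.8 to 27.7). The cluster led by Krt77 and Krt1 (A6, 391) had Lama3 at 59.5 (52.7 to 67.0), Lamb3 at 24.0 (19.8 to 28.9) and Lama5 at 1.52 (0.609 to 3.12). Among the leading genes of cluster A15 (140 barcodes) were Krt17, Lgr5, Lhx2 and Sox9, genes known from the lower hair follicle. It had Lama5 at 48.1 CPM (35.3 to 63.9), 2.04-fold (1.44 to 2.86) the Krt14 cluster, and Lamb1 at 17.4 (10.1 to 27.8), 6.31-fold (3.03 to 13.1). Its Lama3 was lower, 0.578-fold (0.471 to 0.704), with Lamb3 at 1.23-fold (1.06 to 1.42).

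The cluster with Sostdc1, Defb6 and Krt79 among its leading genes (A17, 97 barcodes), of which Krt79 and Defb6 are known from the upper follicle, held Lama4. It had 95 UMIs in 32 barcodes, 94.1 CPM (76.2 to 115), 48.4-fold (26.4 to 96.9) the Krt14 cluster, which had 12 UMIs. Dcn, the fibroblast proteoglycan gene, was at 30.7 CPM (20.9 to 43.6) in it and at 30.3 CPM (26.1 to 35.0) in the Krt14 cluster. Its Lama2 was at 3.96 CPM (1.08 to 10.1), its Lama3 at 0.380-fold (0.297 to 0.481) and its Lamb3 at 0.628-fold (0.513 to 0.762) of the Krt14 cluster. Its Lamb1, with 12 UMIs, was at 4.31-fold (1.88 to 9.58). Lama4 was higher in this cluster, while the levels of Dcn, itself a marker of the fibroblast gate, overlapped. In A15 Lama4 was also above the Krt14 cluster, with 11 UMIs at 11.3 CPM, 5.78-fold (2.31 to 14.3). The source of this Lama4 RNA was not tested. The cluster of cycling cells (A22, Ube2c and Mki67, 40 barcodes) had Lama3 at 102 CPM (78.9 to 129) and Lamb3 at 108 CPM (84.3 to 136). A cluster of 24 gated barcodes with few UMIs, led by Sox6, Skint6 and Scel (A20), had Lama3 at 281 CPM (183 to 411) from 26 UMIs and Lamb3 at 21.6 CPM (2.61 to 78.0) from 2.

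**Figure D3:**
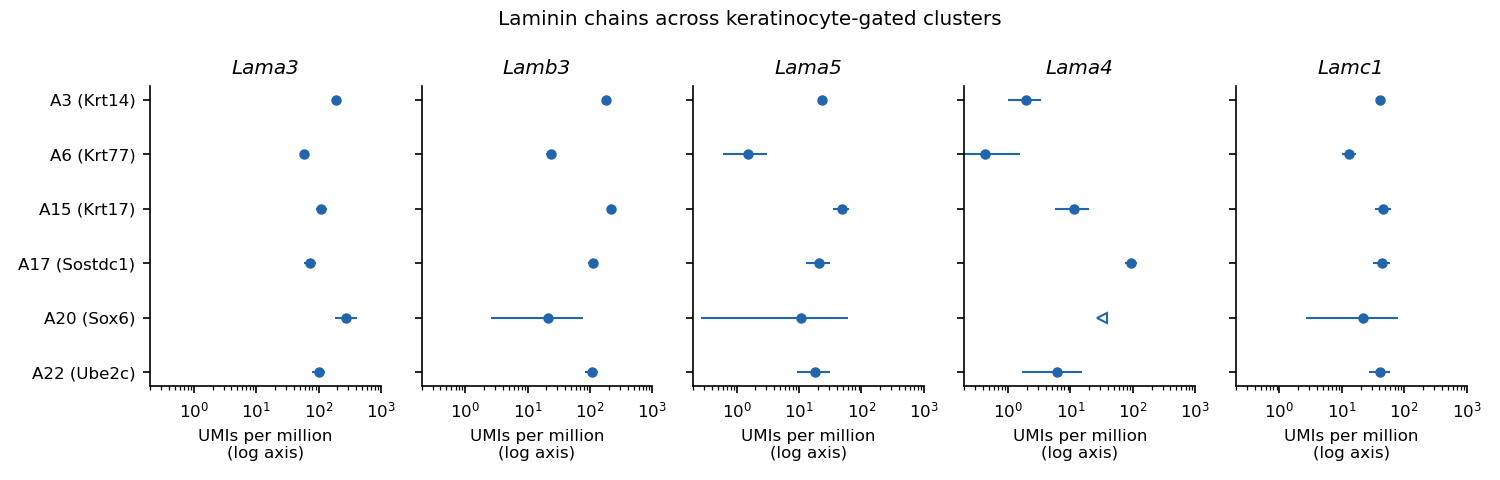
Laminin chain levels in the keratinocyte-gated barcodes of 6 clusters, named by a leading gene, in CPM on a log axis with exact 95% Poisson intervals. An open triangle marks 0 UMIs at the level of 3 counts. Lama4 stands at 94.1 in the Sostdc1 cluster against 1.95 in the Krt14 cluster, and Lamb3 and Lama5 are lowest in the Krt77 cluster among the clusters with 40 barcodes or more.

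The fibroblast-like barcodes were divided into clusters without the laminin genes and the genes of their partner lists, and 8 clusters had 50 barcodes or more. Lama2 varied most of the 5 dermal chains. It was at 1443 CPM (1365 to 1525) in cluster F6 (Robo2 and Crabp1 among its leading genes, 95 barcodes) and at 295 CPM (285 to 305) in F0 (Aldh1a3 and Ptx3, 1128 barcodes), a 4.90-fold spread (4.59 to 5.22). Cluster F5 (Dnah12, Pecam1 and Rasgef1c, 162 barcodes) had 805 CPM (767 to 844), F3 (Thbs4 and Cilp) 714 (684 to 745), F1 (Nkain2 and Ano3) 713 (698 to 727), F2 (Nptx2 and Dmkn) 555 (535 to 575), F7 (Nkain2 and Pgr) 521 (483 to 562) and F4 (Cyp2f2 and Mfap4) 395 (369 to 422). In this order of 8 clusters F3 overlapped F1 and F2 overlapped F7, and no other neighbours did. Lamb1 ran from 69.6 CPM (59.0 to 81.5) in F4 to 160 (153 to 167) in F0, 2.30-fold (1.95 to 2.73), where Lama2 was lowest, with F1 overlapping F0. Lamc1 ran from 217 CPM (187 to 250) in F6, overlapping F4, to 540 (527 to 552) in F1, overlapping F7, 2.49-fold (2.16 to 2.89). Lama2, Lamb1 and Lamc1 thus spread over more than 2-fold, and the share of all genes with such a spread was not computed. Lama4 and Lamb2 spread less, 1.79-fold (1.48 to 2.18) and 1.91-fold (1.55 to 2.38), each lowest in F6 with a neighbour that overlaps. All 5 had UMIs in all 8 clusters, and the cluster with the highest Lama2 had the lowest Lamc1, Lama4 and Lamb2. With finer clusters Lama2 ran from 278 to 1443 CPM.

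Most barcodes of the Crabp1-led cluster failed the fibroblast gate: of 444 barcodes clustered together, 88 were fibroblast-like and 329 passed no gate, the latter with Dcn at 96.6 CPM (82.1 to 113) and a median of 4415 UMIs. As 1 group these 417 barcodes had Lama2 at 1219 CPM against 542 in the other 3405 fibroblast-like barcodes, 2.25-fold (2.16 to 2.34), and 2.68-fold (2.52 to 2.84) in the 88 gated barcodes alone. Their Lamc1 was 0.309-fold (0.277 to 0.344), Lamb2 0.385-fold (0.329 to 0.448), Lama4 0.393-fold (0.336 to 0.456) and Lamb1 0.637-fold (0.554 to 0.729). In the 88 gated barcodes alone Lamc1 was 0.459-fold (0.391 to 0.535), Lamb2 0.636-fold (0.512 to 0.781), Lama4 0.660-fold (0.535 to 0.807) and Lamb1 0.777-fold (0.621 to 0.960), so that Lamb2 and Lama4 were no longer below 0.5-fold. The 417 barcodes also held Lamc3, the γ3 chain gene, with 607 UMIs at 252 CPM against 0.894, 282-fold (201 to 406), and 148-fold (101 to 223) in the gated barcodes alone. Lama3 had 31 UMIs at 12.9 CPM against 0.248, 51.8-fold (24.8 to 118), though Lamb3 had 2 UMIs and Krt14 was at 2.55 CPM (0.308 to 9.20) in the gated and 11.1 CPM (6.57 to 17.5) in the ungated barcodes. The comparison was added after the values were seen.

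**Figure D4:**
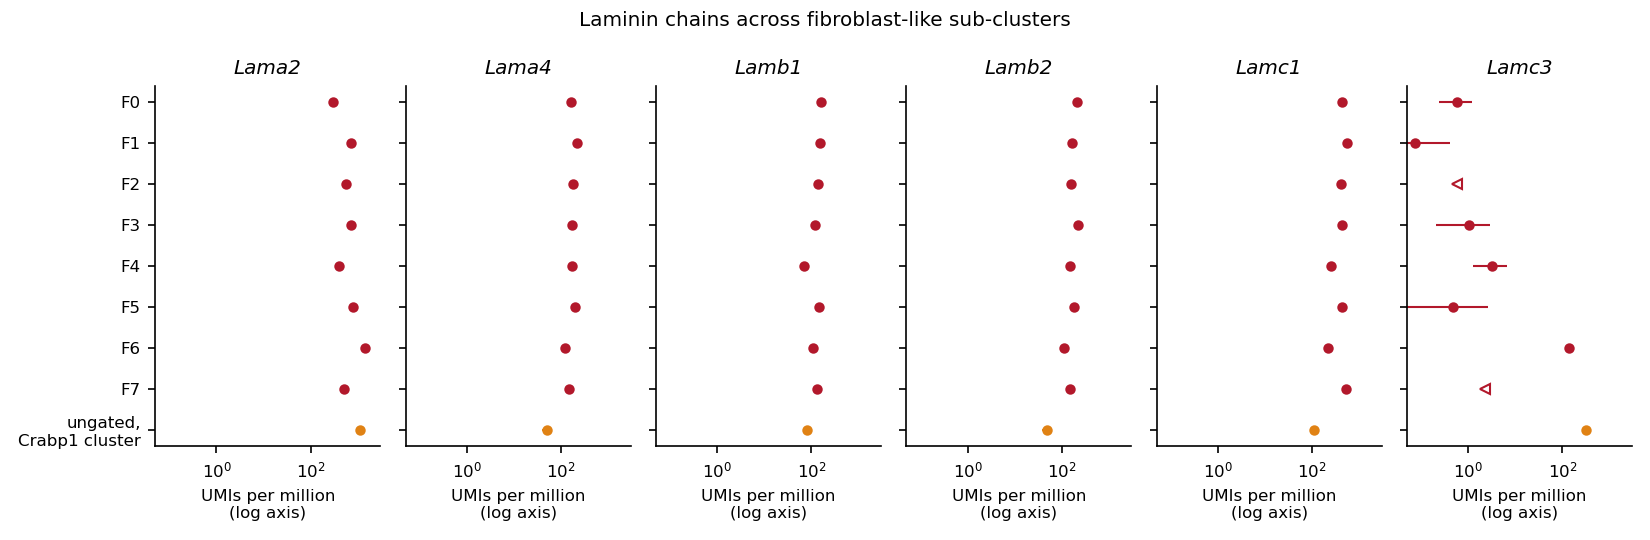
Levels of the 5 dermal chains and of Lamc3 in 8 fibroblast-like clusters and in the 329 ungated barcodes of the Crabp1-led cluster, in CPM on a log axis with exact 95% Poisson intervals. Open triangles mark 0 UMIs at the level of 3 counts. Lama2 ranges from 295 in F0 to 1443 in F6, and Lamc3 is at 135 in F6 and 310 in the ungated barcodes.

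Of the other laminin chains, Lama1 had 189 of its 192 gated UMIs in keratinocyte-like barcodes, at 14.3 CPM (11.9 to 17.0) in basal and 14.9 CPM (11.1 to 19.5) in suprabasal ones, which overlap. It was at 17.2 CPM (14.1 to 20.8) in the Krt14 cluster and at 1 UMI each in the Lgr5 and the Defb6 clusters.

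Lymphoid-like barcodes held Lamb3 without Lama3. They had 108 UMIs in 72 of 255 barcodes, at most 4 in 1 barcode, which is 52.2% of the basal level and 15.4-fold (11.6 to 20.6) the myeloid-like level of 5.40 CPM. Lama3 had 0 UMIs, where 3 would be 2.32 CPM. The 4 keratinocyte genes were in lymphoid-like barcodes at 1.12% of their keratinocyte level. Without the barcodes that held any Dcn, Krt14 or Krt5 UMI, 194 remained, with Lamb3 at 74.4 CPM and 13.8-fold (9.96 to 18.9) above myeloid-like. Thinned to 1000 UMIs, 7.48% (4.56 to 11.4) of lymphoid-like barcodes had a Lamb3 UMI, against 28.2% unthinned at a median of 4686 UMIs, where fibroblast-like barcodes had 0.0861% and 1.43% at a median of 11395. Against lymphoid-like barcodes 5 chains (Lama3, Lama4, Lama5, Lamb1 and Lamb2) were more than 2-fold higher in basal ones (25.7% of 10320 genes) and 0 were below 0.5-fold (17.9%), while Lamb3 was 1.92-fold (1.58 to 2.35) higher. Those 5 rest on few lymphoid-like UMIs: 0 for Lama3 and Lama5, 1 for Lama4 and 2 each for Lamb1 and Lamb2. The interval of the Lamb1 ratio included 1 (0.815 to 26.7). In lymphoid-like barcodes Lamc1 was also 7.65-fold (5.59 to 10.4) above myeloid-like. By cluster, Lamb3 was at 88.1 CPM (69.6 to 110) in the 173 lymphoid-like barcodes of the one led by Ccl5, Gzma and Nkg7, genes of cytotoxic lymphocytes, and at 112 CPM (74.2 to 161) in the 51 of the one with Trdc and Cd3g, which code for parts of T cell receptors. It had 2 UMIs, 12.6 CPM (1.52 to 45.3), in the 31 of the one with Areg, Il5 and Gata3. Lamc1 was at 64.4 CPM (48.7 to 83.4) in the cluster of Gzma, had 3 UMIs in that of Trdc and was at 56.5 CPM (25.8 to 107) in that of Il5, so the 2 chains did not follow each other.

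The gene model of Lamb3 (chromosome 1, bases 193207699 to 193343878, plus strand) contains Hsd11b1 on the opposite strand, the gene of the enzyme that regenerates active glucocorticoid, and whether the counting used strand is not given in the sources used here. Lymphoid-like barcodes had Hsd11b1 at 98.8 CPM (82.4 to 117) beside Lamb3 at 83.4. Fibroblast-like barcodes had an overlapping level of Hsd11b1, 109 CPM (106 to 112), with Lamb3 at 1.27, and basal barcodes had Hsd11b1 at 0.674 CPM (0.247 to 1.47) with Lamb3 at 160. In fibroblast-like and basal barcodes each gene was thus low where the other was high. Among the lymphoid-like clusters the 2 genes had the same order of levels, with Hsd11b1 at 191 CPM (141 to 254) in the cluster of Trdc, 86.9 CPM (68.6 to 109) in that of Gzma and, with 3 UMIs, 18.8 CPM (3.88 to 55.0) in that of Il5. Whether reads of one gene entered the count of the other in lymphoid-like barcodes was not tested. Of the 72 lymphoid-like barcodes with Lamb3 29 had Hsd11b1 (40.3%), and of the 183 without it 50 (27.3%). This gene was read after the Lamb3 values were seen.

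**Figure D5:**
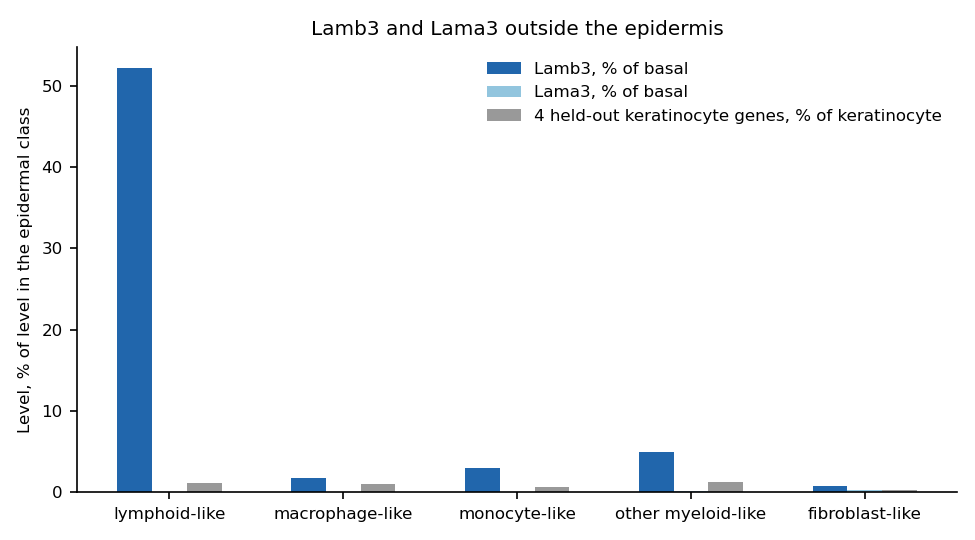
Levels of Lamb3 and Lama3 as percent of the basal keratinocyte-like level, and of 4 keratinocyte genes as percent of the keratinocyte-like level, in 5 classes outside the epidermis. Bars are ratios of class sums without error bars. Lamb3 stands at 52.2% in lymphoid-like barcodes with the keratinocyte genes at 1.12%, and at 0.792% in fibroblast-like ones.

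Small vessel and nerve classes held other chains. The 13 mural-like barcodes had 35 UMIs of Lamb2, 440 CPM (307 to 613), 17 of Lama5, 214 CPM (125 to 343), 11 of Lamc1, 138 CPM (69.1 to 248), and 2 of Lama4. Lamb2 and Lama5 were above 2-fold there (15.6% of genes). The ratio was below 0.5-fold for 5 chains (54.7% of genes), not far from the share over all genes. Of these 5, Lama3 and Lamb3 had 0 UMIs with intervals of the ratio up to 1.93 and 1.81, so no lower level is shown for them. The 5 fibroblast genes were at 8.74% of their fibroblast-like level in them, beside 240.6% for Lamb2, and Lama2 and Lamb1 had 0 UMIs. Lama5 was in 7 of the 13 barcodes, and no interval above covers what a draw of so few cells leaves out. The 3 Schwann-like barcodes all had Lama2, 16 UMIs, and 2 of the 3 blood endothelial-like ones had Lama4, 4 UMIs.

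The partners of the laminins were read from lists of related genes. Of 22 basement membrane partners 11 were above 2-fold (19.8% of all genes) and 6 below 0.5-fold (24.7%) in fibroblast-like barcodes, the latter near the share over all genes, with a median log2 ratio of 1.41, against −0.17 over all genes. Nid1, the nidogen that links the γ1 chain to collagen IV, was at 1060 CPM (1051 to 1070) against 5.11 in all other gated barcodes. Col4a1 (423 CPM, 39.1-fold) and Hspg2, the perlecan gene (210 CPM, 38.1-fold), were also above. In basal barcodes 10 were above (13.9% of all genes) and 9 below (30.7%), among the former Col17a1, a hemidesmosomal collagen, at 1040 CPM (1019 to 1061) and 24.5-fold, Col4a6 (111 CPM, 28.3-fold) and Col7a1, the anchoring fibril collagen (52.3 CPM, 23.6-fold).

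Of 10 laminin receptors 6 were above 2-fold (13.9% of all genes) and 0 below 0.5-fold (30.7%) in basal barcodes. In fibroblast-like ones 1 was above (19.8%) and 6 were below (24.7%). Itga3, which pairs with the β1 integrin to bind α3 and α5 laminins, was at 123 CPM (116 to 130), 97.7-fold, Itgb4 at 185 CPM (177 to 195), 39.7-fold, and Itga6, its hemidesmosomal partner, at 757 CPM, 32.5-fold. Sdc4, a syndecan, was at 1149 CPM (1127 to 1172). Dag1, the dystroglycan gene, was the receptor above 2-fold in fibroblast-like barcodes, at 144 CPM and 3.54-fold. Of the 11 genes that build the laminin-binding sugar of dystroglycan 7 were above 2-fold (19.8% of all genes) and 0 below 0.5-fold (24.7%) there. In basal barcodes 0 were above (13.9%) and 2 below (30.7%). All 5 genes of laminin processing or cross-linking of the basement membrane were below 0.5-fold in basal barcodes (30.7% of all genes). All 5 were above 2-fold in fibroblast-like ones (19.8%), with Mmp14 at 548 CPM (541 to 555). Pxdn, the peroxidasin that cross-links collagen IV, was at 137 CPM (134 to 141) and 76.3-fold there, and Bmp1, a secreted metalloprotease, at 208 CPM and 27.0-fold. Of 7 cytoplasmic anchors 2 were above 2-fold (19.8% of all genes) and 1 below 0.5-fold (24.7%) in fibroblast-like barcodes. In basal barcodes 3 were above (13.9%) and 2 below (30.7%). Fermt1, a kindlin of epithelia, was at 100.1 CPM in basal and its relative Fermt2 at 158 CPM in fibroblast-like barcodes. In the 13 mural-like barcodes 7 receptors were above 2-fold (15.6% of all genes) and 2 below 0.5-fold (54.7%), with Bcam, an α5 laminin receptor, at 692 CPM (521 to 901) and 23.2-fold, and Dmd, the dystrophin gene, was at 1246 CPM (1013 to 1517).

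The genes whose levels followed each chain most closely over the 9 classes of 50 barcodes or more were found by Pearson's r of log2(CPM + 1), as a description, since the 9 points come from 1 library and are few. For Lama2 they were Fndc1 (0.972), Bgn (0.967) and Mmp3 (0.965). For Lama4 they were Mrgprf (0.987), Gm16036 (0.984) and Cd34 (0.984). For Lamb1 they were Adamtsl1, Ddah2 and Fam124a (0.985 to 0.994), for Lamb2 Gstt1, Ackr3 and Zfp334 (0.971 to 0.982) and for Lamc1 Dlc1, Abat and Lztfl1 (0.967 to 0.983). Lama3 was followed by Rnf208, Dsg3, a desmosomal cadherin gene, and Foxq1 (0.998 to 0.999), Lama5 by Lgr6, Vsnl1 and Hoxc13 (0.982 to 0.989), and Lamb3 by Tob1, Aopep and Mrpl9, with the lowest values of the 8 chains (0.949 for Aopep and 0.945 for Mrpl9).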

How the data were processed

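The deposited matrix of 1 pooled droplet RNA library holds raw UMI counts of each gene in each barcode, not normalized. The authors produced these counts on mm10 using Cell Ranger, whose version is not given, per the submitters' processing notes. Cell calling, the kit and the use of strand are not given in the sources used here, and the hashtag library was not used here. The matrix had 8367 barcodes and 83725065 UMIs, with a median of 9426.

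Barcodes with under 200 genes (87) or over 20% mitochondrial UMIs (237) were left out. Lineage classes took 3 markers with 2 UMIs or more in 1 of 14 lineages alone, keratinocyte layers 3 markers with 5 UMIs or more, and myeloid classes the sub-list with most markers. The UMIs of a class were added up and scaled to CPM, with exact Poisson intervals for levels, exact conditional intervals for ratios and Clopper-Pearson intervals for shares, all at 95%. The limit for 0 UMIs was set at 3 counts. No test was made, since cells of 1 library are not replicates. Above and below mean over 2-fold and under 0.5-fold, in genes with 50 UMIs or more.

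Leiden clusters (Scanpy 1.11.5, leidenalg 0.10.2, igraph 0.11.9) used 2000 variable genes, 30 components and 15 neighbours, at resolution 1 for all barcodes and 0.5 for fibroblast-like ones, without 66 laminin and list genes. Doublets were called by scrublet and left out as an alternative. Counting was done in Python 3.11.15 with NumPy 2.4.6, SciPy 1.17.1, pandas 2.3.3 and scikit-learn 1.9.0, and tested on simulated data. Gene positions are from GENCODE on mm10 and promoters from RefSeq.

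The members and lists were chosen with earlier results of these data known. Named list genes were, per class, the top 2 by CPM and the top 2 by ratio to the other gated barcodes, given 20 UMIs or more, and other list genes with values were chosen after their values were seen. Similar genes were the 3 with the highest Pearson's r that are no gate marker. Reading by cluster, the lymphoid comparison with myeloid-like barcodes and Hsd11b1 were added after values were seen. Alternatives changed gate thresholds, filters, doublets, weighting, class definition and free RNA.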

Additional observations from a re-analysis of the deposited data

Results flagged for a closer look

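Laminin RNA was also present in the 780 barcodes that passed no lineage gate and so entered no comparison between classes, above the 1.03 CPM that 3 counts would give there. In them Lama2 was at 718.0 CPM (688 to 750), Lamc1 at 118.0 CPM (106 to 131), Lamb1 at 49.5 CPM (41.8 to 58.3), Lama4 at 43.4 CPM (36.1 to 51.6), Lamb2 at 38.5 CPM (31.7 to 46.4), Lama3 at 33.7 CPM (27.4 to 41.1) and Lamb3 at 10.3 CPM (6.96 to 14.7). Of the 2088 Lama2 UMIs, 1799 lay in the 329 barcodes of the Crabp1-led cluster. In the other 451, with a median of 2113 UMIs, Lama2 was at 226 CPM (200.3 to 253), Lama3 at 58.5 CPM (46.0 to 73.4) and Dcn at 474 CPM (437 to 514). Lama5 had 7 UMIs, 2.41 CPM (0.968 to 4.96).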

How the results depend on the processing

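Of 190 values that answer a comparison under the alternatives, 184 stayed within 1.5 times. Of 424 values of single chains 39 left the counting interval of the reported value and 1 turned, the basal to hair follicle ratio of Lama2, at 1.316 with 2 UMIs per sub-gate marker. Other ratios without a call also crossed 1: Lamb3 (0.8678 to 1.305) and Lamc1 (0.6126 to 1.119) for basal to hair follicle, and Lama2 (0.7159 to 1.509) for basal to suprabasal. The dermal count of 5 chains in fibroblast-like, the epidermal count of 3 in basal and that of 1 in lymphoid-like barcodes held under every alternative run. With 1 UMI per marker, 0 chains in place of 1 were above 2-fold in suprabasal barcodes. The comparison of basal with hair follicle barcodes was the least stable. Chains above 2-fold there were 2 with 1 UMI per marker, 0 with 2 UMIs per sub-gate marker and 2 with called doublets left out, in place of 1. Chains below 0.5-fold were 2 with 1 UMI per marker and 1 with 2 UMIs per sub-gate marker, in place of 4. The cause was not tested. With 10 UMIs per sub-gate marker, or whole clusters as classes, too few hair follicle barcodes remained to give a value. The fibroblast-like to basal ratio ran from 17.28 to 222.5 for Lama2, 7.131 to 27.18 for Lama4, 10.08 to 43.01 for Lamb1, 8.148 to 16.3 for Lamb2 and 6.883 to 12.29 for Lamc1, lowest with whole clusters as classes, and from 0.0005286 to 0.009365 for Lama3. No paired analysis was possible because the matrix is 1 pooled library with no replicate numbers. Depth limits Lama5, at 262 gated UMIs, and every class under 50 barcodes.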
